A study of Mus musculus with 2 samples.

Results

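Divergent promoter pairs are neighbouring genes that lie head to head on opposite strands, so that both are transcribed outwards from a shared stretch of DNA. They were taken from the 21951 protein-coding genes of GENCODE release M21 on the mouse build mm10, using the 5'-most annotated start of each gene. A pair had the start of its minus-strand gene at or before the start of its plus-strand gene, at most 1 kb away. This gave 756 pairs made of 1491 genes, or 6.79% of all coding genes, and 21 genes belonged to 2 pairs each. The region of a pair was the span between its starts plus 500 bp on each side. Accessibility came from DNase-seq of adrenal glands, in which the enzyme DNase I cuts open chromatin in nuclei and the cut ends are sequenced. The tissue came from female mice aged 10 days of the F1 strain B6CASTF1/J, a cross of C57BL/6J and CAST/EiJ. There was 1 group of 2 samples, labelled biological replicates 1 and 2, each with 3 females named. No condition was compared, regions of 1 sample are not replicates, and the replicates are therefore set side by side without a test.

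Promoters of this kind are also called bidirectional. Many lie in CpG islands, lack a TATA box and serve genes that nearly all cells use, such as those for DNA repair, mitochondria and protein synthesis. A shared nucleosome-free stretch lets transcription factors between the starts act on both genes, although the RNAs of a pair need not be made in equal amounts. Open chromatin is where DNase I cuts, a footprint is a short stretch within it that is cut less because a protein covers it, and neither reports transcription itself.

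The DNA between the starts of 7 pairs shows the range of these promoters. The sequences are the plus strand of the RefSeq copy of mm10, and capitals mark bases that lay in a footprint of both replicates. Hjurp/Trpm8 (chr1:88277633-88277661) held the highest peaks of all pairs. Apaf1/Ikbip (chr10:91082770-91082940) had the most shared footprints among the 10 highest pairs, and Dcaf6/Mpc2 (chr1:165460475-165460637) was another of those 10. Hadha/Hadhb (chr5:30155162-30155248) and Mrps12/Sars2 (chr7:28741820-28741992) are textbook bidirectional promoters of mitochondrial proteins. Nadsyn1/Dhcr7 (chr7:143822849-143823145) holds a gene of cholesterol synthesis, and Best1/Rab3il1 (chr19:10001633-10001669) had no peak.
Hjurp/Trpm8: aggggagggacgagagggagggtccgccg
Apaf1/Ikbip: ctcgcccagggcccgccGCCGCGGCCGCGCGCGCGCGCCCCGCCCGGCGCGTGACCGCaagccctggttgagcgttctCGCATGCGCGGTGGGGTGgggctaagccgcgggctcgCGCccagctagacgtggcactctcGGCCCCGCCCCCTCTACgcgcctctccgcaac
Dcaf6/Mpc2: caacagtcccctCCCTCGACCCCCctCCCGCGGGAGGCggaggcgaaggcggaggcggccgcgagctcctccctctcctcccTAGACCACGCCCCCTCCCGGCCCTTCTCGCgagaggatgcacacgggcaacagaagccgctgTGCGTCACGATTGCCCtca
Hadha/Hadhb: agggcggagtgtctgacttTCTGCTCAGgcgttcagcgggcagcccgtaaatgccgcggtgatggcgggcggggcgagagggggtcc
Mrps12/Sars2: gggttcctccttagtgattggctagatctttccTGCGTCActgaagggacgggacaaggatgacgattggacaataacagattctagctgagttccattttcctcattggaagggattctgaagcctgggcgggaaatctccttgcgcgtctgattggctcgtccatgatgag
Nadsyn1/Dhcr7: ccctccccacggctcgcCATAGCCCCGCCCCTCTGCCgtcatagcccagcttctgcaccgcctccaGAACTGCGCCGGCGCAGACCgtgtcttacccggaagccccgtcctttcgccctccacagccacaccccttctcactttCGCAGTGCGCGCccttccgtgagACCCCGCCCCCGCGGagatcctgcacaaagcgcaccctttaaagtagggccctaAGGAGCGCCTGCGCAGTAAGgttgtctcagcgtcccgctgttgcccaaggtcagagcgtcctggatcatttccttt
Best1/Rab3il1: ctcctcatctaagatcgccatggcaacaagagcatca

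In the Apaf1/Ikbip span, 79 of 171 bases lay in shared footprints. They covered all 9 letters of its NRF1 match (GCGCATGCG, read on either strand) and all 9 letters of its GC box (GGGGCGGGG), a motif of SP and KLF factors. The Nadsyn1/Dhcr7 span had 87 such bases of 297, and both of its GC boxes lay in them with all letters. Its ETS match (CCGGAAG) and its SF-1 match (CAAGGTCA) had none of their letters in shared footprints. The Mrps12/Sars2 span held 4 CCAAT boxes, the letters that NF-Y reads, and none of their letters were in shared footprints. In the Dcaf6/Mpc2 span the palindromic letters TCTCGCGAG, read on both strands at overlapping places, ran out of a shared footprint at its edge. The spans of Hjurp/Trpm8 (29 bases) and Best1/Rab3il1 (37 bases) held no shared footprint and no match to the 14 motifs searched. The 6 shared footprints of Hjurp/Trpm8 lay inside the genes, within the 500 bp flanks.

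The peak heights are the authors' own signal, given per peak in a unit that is not stated. Replicate 1 had 98813 peaks and 339116 footprints, and replicate 2 had 55135 peaks and 241536 footprints. Heights came in multiples of a sample-wide step (0.00668 for replicate 1, 0.00620 for replicate 2), and within 10% of a step 100% of them in replicate 1 and 99.99% in replicate 2 were whole multiples. Read as 1 sequenced tag a step, which is inferred from the values, the median pair height would stand for 1278 and 642 tags with counting errors of 2.80% and 3.95%. The labelled tissue was set beside markers at their 5'-most starts. Peaks in both replicates were found at 3 of 6 cortex markers (Star, Nr5a1 and Scarb1), at 3 of 6 chromaffin markers (Dbh, Chga and Chgb) and at 0 of 6 markers of other tissues.

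Nearly all divergent pairs were open. A peak overlapped the region of 721 pairs (95.4%) in replicate 1 and 714 pairs (94.4%) in replicate 2, and 714 pairs (94.4%) had a peak in both. The background over all coding promoters was 56.8%. Promoters with no other coding start within 1 kb, called lone promoters here and read over 500 bp on each side of the start, had a peak in both replicates in 52.4% of 19178. The 456 head-to-head pairs whose starts cross, called crossing pairs here, had one in 93.2%. In these the plus-strand start lies up to 1 kb before the minus-strand start, and whether first exons overlap was not checked. Of the divergent pairs, 35 had no peak in either replicate, 7 had one in replicate 1 only and 0 in replicate 2 only. A tissue of several cell types cannot tell fewer open cells from less open chromatin per cell, here and in all heights that follow.

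Open pairs also had higher peaks. The highest peak of a pair had a median height of 8.52 in replicate 1 (quartiles 6.02 and 11.1, range 0.294 to 39.9), against 4.93 at lone promoters (quartiles 2.01 and 8.45). In replicate 2 the medians were 3.98 in pairs (quartiles 3.10 and 4.87, range 0.341 to 16.4) and 2.84 at lone promoters (quartiles 1.52 and 4.17). The ratio of these medians was 1.73 in replicate 1 and 1.40 in replicate 2. The lower quartile of the pairs thus lay above the median of the lone promoters in both replicates, while the upper quartiles were closer. Crossing pairs had medians of 7.33 and 3.74 in replicates 1 and 2. Within the 714 open pairs, heights of the 2 replicates had a Spearman correlation of 0.858, a description over regions that share the same 2 libraries.

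**Figure D1:**
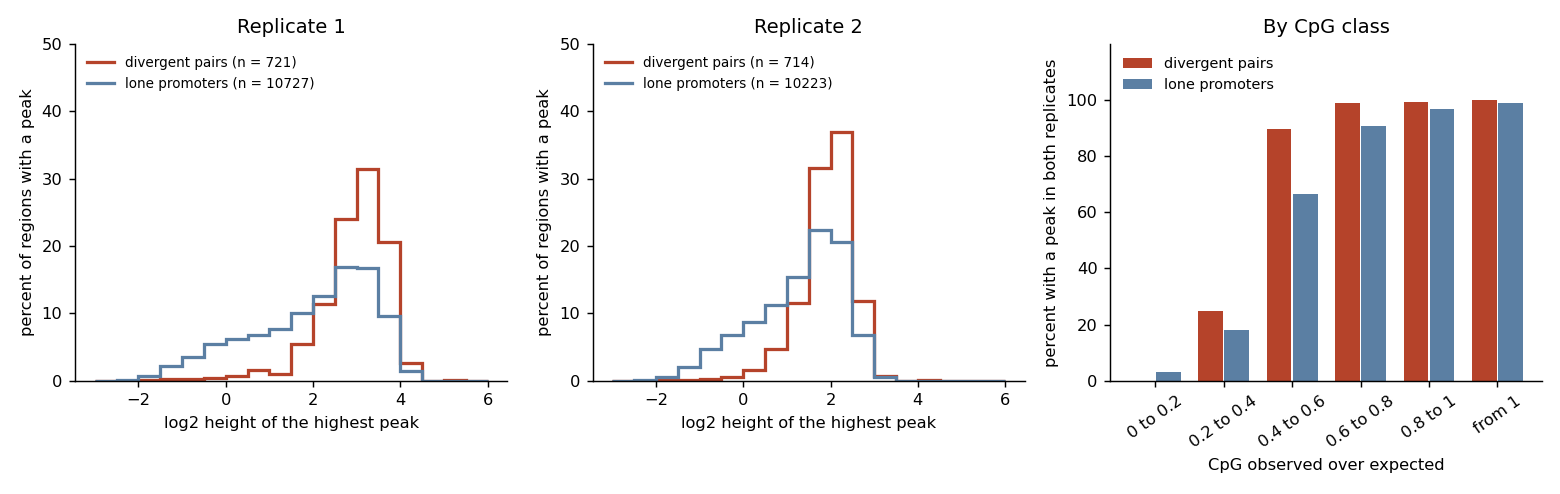
Left and middle: percent of regions with a peak (y axis) by log2 height of the highest peak (x axis, bins of 0.5) in each replicate, for divergent pairs (red) and lone promoters (blue). The pairs form a narrow group at the high end, with medians of 8.52 and 3.98 on the linear scale, while lone promoters trail to low heights. Right: percent with a peak in both replicates by class of CpG observed over expected. Pairs stand at 89.7% in the class from 0.4 to 0.6, where lone promoters stand at 66.4%, and the sets are close together from 0.8 on.

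CpG content moved with openness in both sets. The pair regions had a median GC content of 59.4% and a median CpG observed over expected of 0.761, against 53.8% and 0.483 at lone promoters. Among regions with a ratio from 0.6 to 0.8, 346 of 349 pairs (99.1%) and 90.8% of lone promoters were open, and median heights were 8.24 and 3.85 in pairs against 5.78 and 3.00 at lone promoters in replicates 1 and 2. From 0.8 to 1, 99.2% of pairs and 96.9% of lone promoters were open, with heights of 9.45 and 4.25 against 7.67 and 3.83. From 0.4 to 0.6, 78 of 87 pairs (89.7%) and 66.4% of lone promoters were open, with heights of 6.45 and 2.91 against 3.10 and 1.79. Below that the sets were nearer to each other, at 5 of 20 pairs (25%) against 18.0% from 0.2 to 0.4, and 0 of 12 pairs against 3.26% under 0.2. In each class from 0.2 on, the share of open regions and the median heights were higher in pairs than at lone promoters, with 5 open pairs in the lowest of these classes. Pair regions were also longer (median 1130 bp, against 1001 bp) and hold 2 starts. Over all CpG classes, lone windows extended upstream to 1130 bp were open in 52.5%, with median heights of 4.93 and 2.84. Genes in pairs, read over 500 bp on each side of a single start, were open in 93.5%, with 8.49 and 3.97. Within the CpG classes the part of length was not tested, nor was the part of holding 2 starts.

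The 10 highest pairs by the mean of both replicates were led by Hjurp/Trpm8. Hjurp encodes the chaperone that loads the centromeric histone CENP-A, and Trpm8 a cold-sensing ion channel. Its highest peak reached 39.9 in replicate 1 and 16.4 in replicate 2, with starts 28 bp apart. The next was Fbh1/Ankrd16, with 21.5 and 8.39, where Fbh1 encodes a DNA helicase. Apaf1/Ikbip, with the gene of the apoptosome scaffold, had 20.1 and 8.0, and 12 shared footprints covering 155 bases. Pdhx/Apip, with a subunit of the pyruvate dehydrogenase complex and an enzyme of methionine salvage, had 18.6 and 8.08. Hjurp/Trpm8 stood far above the rest, and the gaps below it were small. Dcaf6/Mpc2, with a subunit of the mitochondrial pyruvate carrier, had 16.7 and 8.55. Further pairs were Rer1/Morn1, Dnajb4/Fubp1, Fam53a/Gm9903 and Sharpin/Maf1, between 15.9 and 17.5 in replicate 1 and between 7.28 and 7.95 in replicate 2. All 10 were higher in replicate 1, as were 99.7% of all open pairs.

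Pairs known from textbooks were looked up by name. Of 32 listed bidirectional pairs, 15 met the rule, 14 were crossing pairs and 3 had another arrangement or distance. All 15 had a peak in both replicates, beside 94.4% of all divergent pairs. Nadsyn1/Dhcr7 (16.8 and 6.37) and Atm/Npat (16.1 and 5.32) were the highest of them in replicate 1. Atm encodes the kinase that signals DNA breaks, and Npat a coactivator of histone genes. Recql4/Lrrc14, with a helicase gene, had 12.3 and 6.34. Hadha/Hadhb, which encode the alpha and beta subunits of the mitochondrial trifunctional protein, had 9.0 and 5.17, and Brca1/Nbr1 had 9.11 and 3.29. Mrps12/Sars2, with a protein of the mitochondrial ribosome and a mitochondrial tRNA synthetase, had 7.57 and 4.29. The lowest was Col4a4/Col4a3, with chains of basement membrane collagen, at 1.02 and 0.756. The repair pairs Mcm4/Prkdc, Aimp2/Pms2, Toe1/Mutyh and Tsc2/Nthl1 lay between 4.12 and 11.1 in replicate 1 and between 2.27 and 4.65 in replicate 2. Pdcd10/Serpini1 had 11.6 and 4.41, and Sdhd/Timm8b 7.67 and 3.34.

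Groups of genes differed in how often they sat in a divergent pair, beside 6.79% of all coding genes. These are counts of the annotation and do not depend on the tissue. Replication-dependent histone genes led with 27 of 67 (40.3%), followed by RNA polymerase subunits with 9 of 28 (32.1%) and DNA repair and replication genes with 40 of 142 (28.2%). The respiratory chain and ATP synthase genes, assembly factors included, had 23 of 98 (23.5%), the mitochondrial ribosome 18 of 78 (23.1%), chaperones 16 of 88 (18.2%), the proteasome 6 of 40 (15%) and aminoacyl-tRNA synthetases 5 of 38 (13.2%). The cytosolic ribosome had 9 of 87 (10.3%), zinc finger genes 26 of 465 (5.59%) and collagens 2 of 44 (4.55%). Histones mostly paired with each other, in 13 of their 14 pairs, whereas no pair joined 2 genes of the mitochondrial ribosome or of the respiratory chain.

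Apart from the histone pairs and the single collagen pair, the medians of these groups lay between 7.59 and 10.2 in replicate 1 and between 3.32 and 4.82 in replicate 2, beside 8.54 and 3.98 for all open pairs. All 18 pairs of the mitochondrial ribosome were open, with median heights of 9.35 and 4.3, as were all 23 of the respiratory chain with 8.78 and 4.05. Of DNA repair and replication, 40 of 41 were, with 9.28 and 4.15. Over all divergent pairs 94.4% were open, and the counts of these 3 groups were near that share. Mrps18b/Ppp1r10 had the highest peak of the first group in replicate 1 (14.6, and 5.44 in replicate 2). Ndufa8/Morn5, with a subunit of complex I, led the second at 15.3 and 7.52. In the repair group, Palb2/Dctn5, with the partner of BRCA2, had 13.8 and 7.5. Chaperone pairs had medians of 10.2 and 4.82 in replicates 1 and 2. The 11 open histone pairs of 14 had medians of 4.24 and 1.84, below those of all open pairs, and the highest of them, Hist2h2ac/Hist2h2be, reached 6.97 and 3.52. Of the 7 pairs whose regions lay for at least 50% in a second place of the genome at 98% identity or more, 6 were histone pairs, and 2 of these had no peak. How reads were placed in such copies is not given in the sources used here, so histone heights are uncertain.

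Genes of adrenal functions were counted in the same way, beside the 6.79% of all coding genes. Of 24 genes of steroid synthesis 1 was in a pair (4.17%), Npc2 with Isca2, at 11.4 and 3.81. Npc2 encodes the protein that carries cholesterol out of lysosomes. Of 25 genes of cholesterol synthesis 3 were (12%). Nadsyn1/Dhcr7, with the last reductase of the pathway, had 16.8 and 6.37, and Mmab/Mvk, with mevalonate kinase, had 11.8 and 5.80. Cetn2/Nsdhl had 4.15 and 1.63, where Nsdhl encodes a sterol dehydrogenase on the X chromosome. None of 30 chromaffin genes and none of 21 clock genes met the rule. The amine transporter gene Slc18a1 formed a crossing pair with Atp6v1b2 (13.7 and 6.85).

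The starts of a pair mostly shared 1 open stretch. Starts lay 129 bp apart at the median (quartiles 66.8 and 240, range 0 to 987), with 313 pairs (41.4%) under 100 bp and 620 (82.0%) at most 300 bp. At an FDR of 0.001, the authors' listed rate of false calls per base, both starts were inside a single uninterrupted stretch in 676 pairs (89.4%) in replicate 1 and 665 (88.0%) in replicate 2. Exactly 1 start was listed in 21 pairs in each replicate, and neither in 44 and 50. The longest stretch overlapping an open pair region had a median of 1061.5 bp in replicate 1 and 1034 bp in replicate 2, against 838 and 833 bp at lone promoters. Lone windows are 1001 bp long against a median of 1130 bp for pairs, but stretches were not cut at the window edges. With lone windows extended upstream to 1130 bp, these medians were 837 and 832 bp. The highest peak was centred between the starts in 466 pairs (64.6%) in replicate 1 and 374 (52.4%) in replicate 2. Otherwise its centre fell inside the minus-strand gene in 133 and 175 pairs and inside the plus-strand gene in 122 and 165, so neither side was preferred by a wide margin. Peaks of replicate 2 were wider (median 320 bp, against 240 bp in replicate 1). At lone promoters the median centre lay 16 bp upstream of the start in replicate 1 and 16 bp inside the gene in replicate 2.

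**Figure D2:**
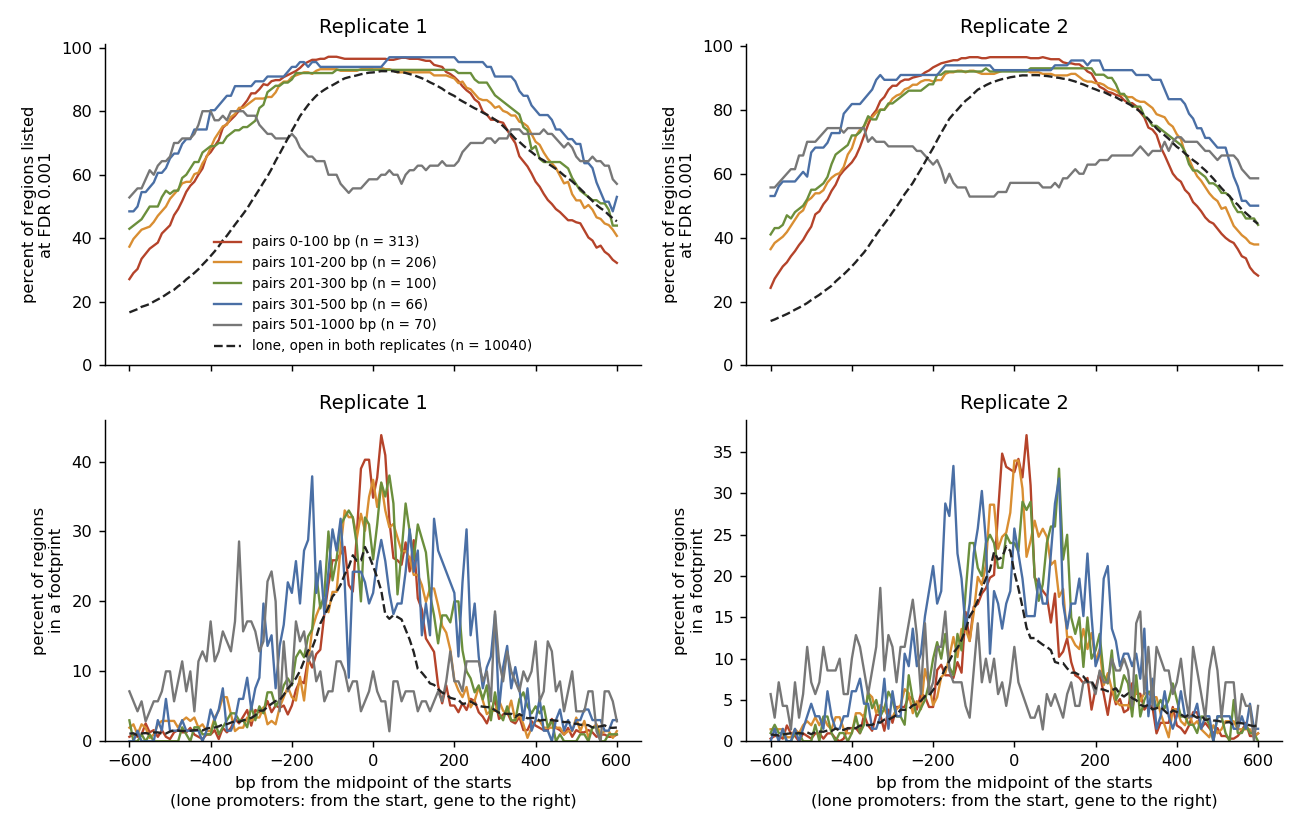
Percent of regions listed at an FDR of 0.001 (top) and inside a footprint (bottom) by distance from the midpoint of the starts, in replicate 1 (left) and replicate 2 (right). Solid lines are all pairs by distance between the starts, without the mitochondrial pair, and the dashed line is lone promoters open in both replicates, centred on the start with the gene to the right. Pairs up to 500 bp form 1 plateau on both sides, the pairs over 500 bp dip at the midpoint, and lone promoters fall off faster on the side without a gene.

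The form of the open region went with distance. Where starts were at most 50 bp apart, 1 peak covered both starts in 91.5% of pairs in replicate 1 and 89.9% in replicate 2. Over 200 and up to 300 bp these shares were 34% and 40%, and over 500 bp 0% and 1.43%. Across the distance classes the highest peaks had median widths of 220 to 270 bp in replicate 1 and 280 to 380 bp in replicate 2. A peak of such width cannot cover starts over 500 bp apart, so this fall follows in part from peak width. The share of open pairs with at least 2 peaks was 26.6% and 23.4% up to 50 bp and 73.4% and 68.9% over 500 bp. Over all open pairs it was 41.1% in replicate 1 and 36.1% in replicate 2, against 32.9% and 27.5% at lone promoters. This share depended on the window, at 24.1% of pairs in replicate 1 with flanks of 250 bp. In windows of 500 bp on each side of a single start, genes in pairs had 35.4% and 32.0%, and lone windows extended upstream had 34.6% and 28.6%. A single FDR stretch nevertheless held both starts in at least 92% of pairs of each class up to 500 bp in replicate 1, and in at least 89.4% in replicate 2. Over 500 bp it did so in 31 of 70 pairs (44.3%) and 27 of 70 (38.6%). Over the 714 open pairs, distance and height had Spearman correlations of 0.0936 in replicate 1 and -0.0139 in replicate 2.

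**Figure D3:**
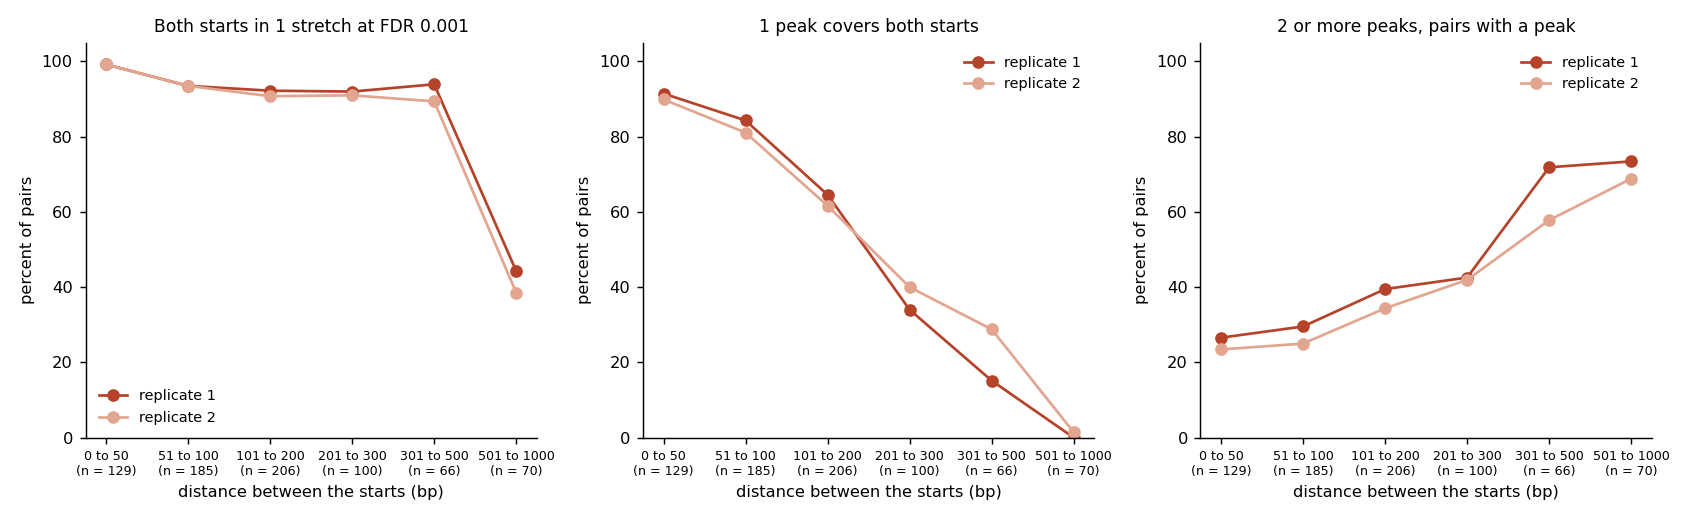
Percent of pairs (y axis) by distance between the starts (x axis, number of pairs under each class) in replicate 1 (dark) and replicate 2 (light). Both starts lie in 1 FDR stretch at near 90% or more up to 500 bp and at 44.3% and 38.6% beyond it, the share with 1 peak over both starts falls to 0% and 1.43%, and the share with 2 or more peaks climbs to 73.4% and 68.9%.

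The most peaks per region were found at Hnrnpa2b1/Cbx3, with 4 in each replicate. This pair holds genes of an RNA-binding protein and of heterochromatin protein HP1 gamma and is known from vector design as a ubiquitous chromatin opening element. Its highest peak had 12.5 and 7.15. Fiz1/Gm44973 and Aamdc/Rsf1 also had 4 in each replicate, and Cbx5/Hnrnpa1, a second pair of an HP1 gene and an hnRNP gene, had 4 and 3, as did Smim7/Tmem38a. All 5 had starts between 392 and 967 bp apart.

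In the 136 pairs with starts over 300 bp apart, peaks could be assigned to a start when they came within 100 bp of it. In 43 of them each start had its own peak in both replicates, and the same start was higher in both replicates in 39. The median difference between the starts was 0.73 on the log2 scale in replicate 1 and 0.74 in replicate 2, and in 12 pairs the starts differed over 2-fold in both. At Abca17/Abca3, the Abca3 start, of a lipid transporter of lamellar bodies in the lung, had heights of 8.92 and 3.81, against 0.608 and 0.483 at the start of Abca17. At Wrn/Purg, the start of Wrn, a helicase gene, had 6.87 and 4.20, against 0.929 and 0.979 at Purg. The Fhod1 start, of a formin, had 9.09 and 3.39, against 1.12 and 1.06 at Slc9a5. The Sympk start, of an RNA-processing scaffold, had 9.57 and 3.25, against 1.73 and 1.01 at Foxa3, a factor of liver and gut. The higher start thus stayed the same across the replicates in most of these pairs, and in these 4 by over 3-fold in each.

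A further 27 far pairs had a peak at 1 start only in both replicates, and in 26 it was the same start. Reep6 was open with 10.7 and 4.20 and its partner Pcsk4, a protease gene of sperm, had no peak within 100 bp. Likewise Nol9 had 8.44 and 5.00 without a peak at Tas1r1, a taste receptor gene, and Ppp1ca, of a protein phosphatase, had 9.89 and 4.21 without one at Tbc1d10c. The exception was Sox6/1110004F10Rik, whose peak of 0.334 lay at Sox6 in replicate 1 and of 0.589 at the other start in replicate 2, both near the low end of all pairs. These pairs, and those with each start open, were named after their values were seen.

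**Figure D4:**
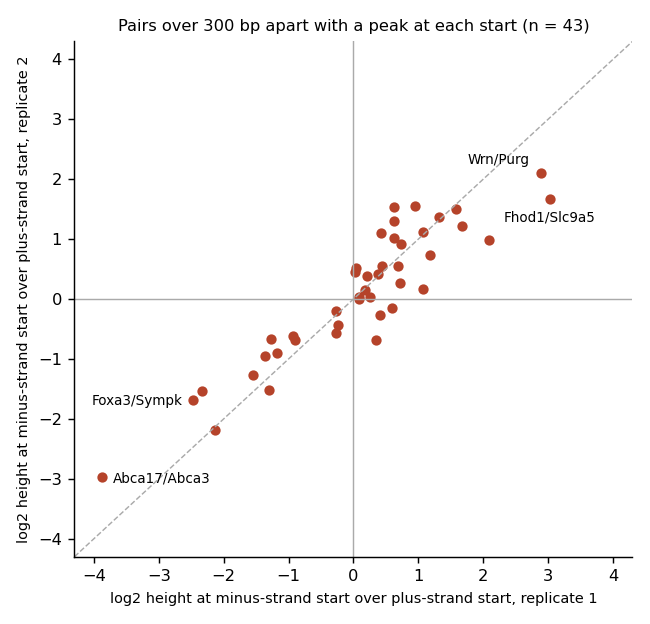
Log2 height at the minus-strand start over the plus-strand start in replicate 1 (x axis) and replicate 2 (y axis) for the 43 pairs over 300 bp apart with a peak at each start, each point a pair. Of them, 39 lie in the quadrants where both replicates place the same start higher, and Abca17/Abca3, Foxa3/Sympk, Wrn/Purg and Fhod1/Slc9a5 are among those farthest out.

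Footprints were found at nearly all divergent pairs. A footprint that overlapped between the replicates was found in 713 pairs (94.3%), against a background of 54.4% of all coding promoters and 49.9% of lone promoters. The shares with a peak in both replicates were close to these in each set, at 94.4%, 56.8% and 52.4%, so the contrast largely repeats that of openness. Pairs had a median of 8 footprints in each replicate. Per kb of open region this was 6.99 and 6.74 in replicates 1 and 2, against 5.99 and 5.99 at open lone promoters. With CpG observed over expected from 0.8 to 1, the medians were 7.44 and 7.19 in open pairs, against 7.99 and 6.99 at open lone promoters. In the other CpG classes from 0.2 on, pairs were higher in both replicates. In open pairs, footprints covered 26.3% of the bases between the starts in replicate 1 and 22.1% in replicate 2. They covered 21.7% and 15.9% of the first 100 bp inside the genes, 6.41% and 6.34% of the next 150 bp, and 2.22% in both replicates beyond 250 bp. Coverage thus fell with distance from the shared stretch in both replicates. Most shared bases lay at Cep170/Sdccag8, with 206 bases in 15 shared footprints, followed by Deaf1/Tmem80 (194), Cdca2/Kctd9 (191), Dtl/Ints7 (190) and Exosc8/Alg5 (183). Height in replicate 1 and the number of shared footprints had a Spearman correlation of 0.442 over the 714 open pairs, where both values come from the same reads.

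Sequence motifs were counted as exact letters on both strands. The share of pair regions with the ETS core CCGGAAG was 43.6%, against 17.0% of lone windows extended upstream to the same median length and 19.2% of all coding promoters. Among open regions the shares were 45.7% in pairs and 26.6% in lone windows. These windows match in median length only. A pair region holds 2 starts and 500 bp inside each of 2 genes, while a lone window holds 1 start and more upstream DNA. CpG content was not matched either, and the part of these differences in the motif shares was not tested. The YY1 core ATGGCGGC was in 16.9% of open pairs and 10.0% of open lone windows, and the NRF1 letters GCGCATGCG in 7.70% and 4.46%. The palindromic core TCTCGCGAG was in 3.64% and 1.77%, and CRE (TGACGTCA) in 6.30% and 4.61%. Near equal shares were seen for the GC box GGGGCGGGG (37.4% and 36.1%), CCAAT (72.5% and 71.2%), the sterol element TCACNCCAC (4.90% and 4.61%) and the CTCF core GGGGGCGCT (3.50% and 3.95%). The SF-1 letters CAAGGTCA, named for the cortex factor, were in 5.04% of open pairs and 5.83% of open lone windows. Pairs were below lone windows for TATAAA (17.5% and 26.4%) and for AP-1 (TGANTCA, 13.3% and 16.9%). The remaining 2 were the E-box CACGTG (24.9% and 22.9%) and the ZNF143 core ACTACAANN (14.0% and 9.37%). Over the 714 open pairs, the number of ETS matches and the height had Spearman correlations of 0.0291 in replicate 1 and 0.00257 in replicate 2.

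Where the motifs sat differed by motif. In open pairs the ETS core had 1.07 matches per kb between the starts and 0.431 in the flanks, the GC box 1.49 and 0.293, CCAAT 4.11 and 0.992, and the NRF1 letters 0.340 and 0.0700. The YY1 core ran the other way, with 0.0444 between the starts and 0.178 in the flanks. In the first 50 bp inside the genes it had 0.574 per kb in pairs and 0.536 at lone promoters. CCAAT reached 5.70 per kb between 51 and 100 bp upstream of the nearest start in pairs, against 3.16 at lone promoters. Within 50 bp upstream of a start, TATAAA had 0.156 per kb in pairs and 0.373 at lone promoters. The last value rests on 9 matches in pairs and 187 at lone promoters, and in pairs each base was assigned to its nearest start, while it may lie upstream of both. The share of matches inside a footprint in open pairs was highest for the NRF1 letters, 92.7% in each replicate, and 83.0% and 76.6% for CRE. At open lone promoters these shares were 93.4% and 91.9% for the NRF1 letters and 78.4% and 72.5% for CRE. For the GC box 57.9% and 49.4% of matches in pairs lay in a footprint, against 50.6% and 41.6% at lone promoters. For ETS the shares were 38.3% and 28.8% in pairs, against 30.9% and 23.6% at lone promoters. YY1 had 40.6% and 37.6% in pairs, against 33.5% and 32.7%, and CCAAT had 25.2% and 23.4% in pairs, against 17.0% and 15.5%. The NRF1 share was thus much the same in both sets. The NRF1 letters can match on both strands at overlapping places, and each match was counted in these densities and shares. In open pairs, the 96 NRF1 matches lay in 55 regions, of which 32 held 2 or more.

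**Figure D5:**
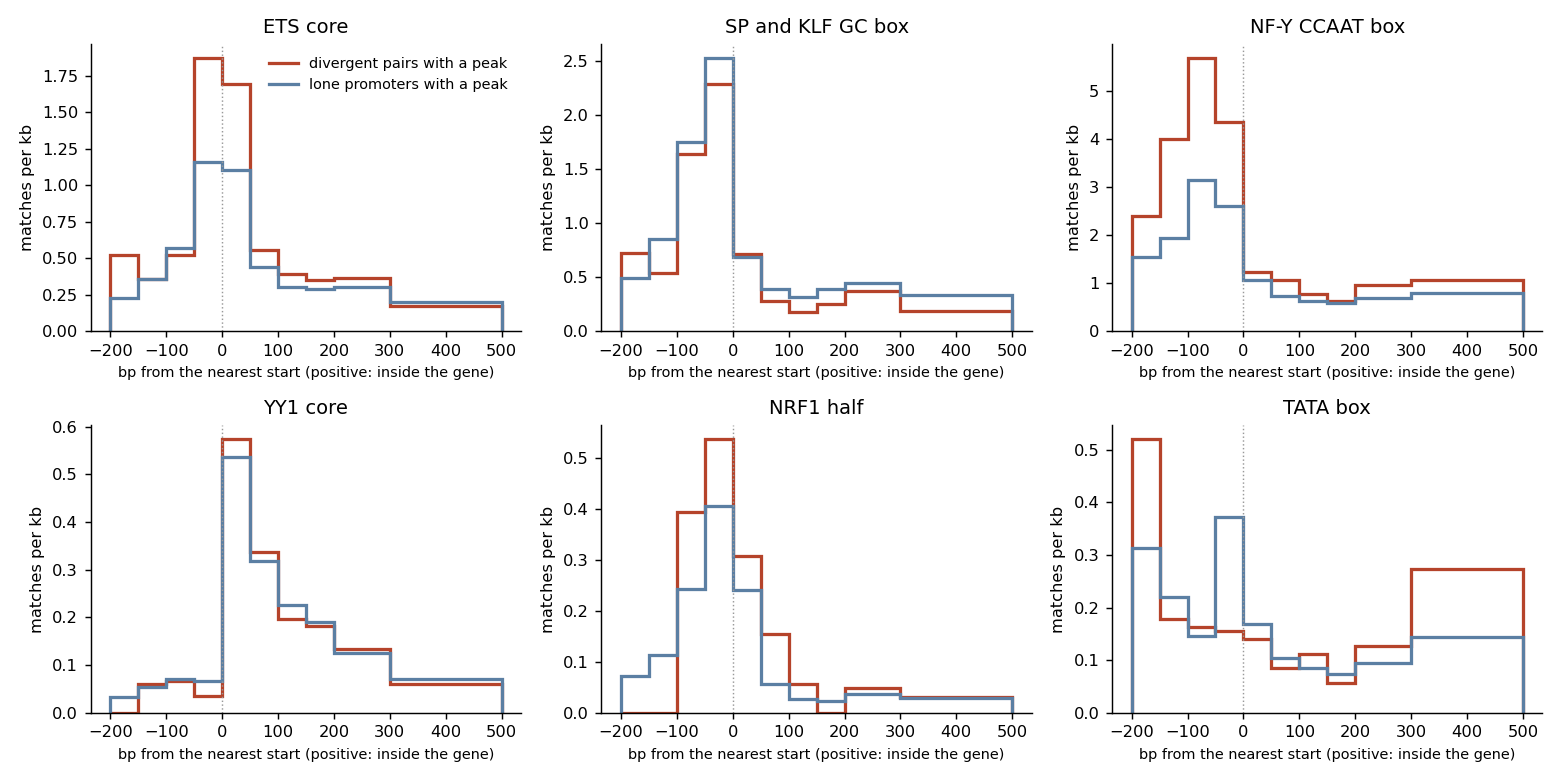
Matches per kb (y axis) by distance from the nearest start (x axis, negative upstream, positive inside the gene) for 6 motifs in open divergent pairs (red) and open lone promoters (blue). ETS matches stand higher in pairs within 50 bp on both sides of the start (upstream 1.87 against 1.16 per kb, inside 1.69 against 1.11). From 51 to 100 bp upstream they do not (0.524 against 0.572). CCAAT matches stand higher in pairs upstream of the starts, and YY1 matches sit inside the genes in both sets. The rise of TATAAA just upstream of lone starts (0.373 per kb) is not seen in pairs (0.156 per kb). The upstream bins of pairs hold few bases beyond 150 bp.

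The 35 pairs with no peak were poor in CpG. Their median CpG observed over expected was 0.258 (range 0.0964 to 0.923), against 0.769 in the 714 pairs with a peak in both replicates. A gene with a Gm or Rik symbol was in 10 of the 35 pairs, against 68 of the 714. With known names, the 10 of shortest distance were Best1/Rab3il1, Rnf151/Rps2, Dgcr2/Tssk2, mt-Nd6/mt-Cytb, Il11/Tmem190, Patl2/Terb2, Zfp558/Mbd3l1, Nmur1/Tex44, Nt5c3b/Klhl10 and Lypd4/Dmrtc2. Their members have varied roles, among them Tssk2, a kinase of spermatids, Terb2, which tethers telomeres in meiosis, and Rps2, of the cytosolic ribosome, which were picked as examples without a fixed list. The pair mt-Nd6/mt-Cytb is on the mitochondrial genome, which carries no nucleosomes. In the longer peak list, 5 of the 35 had a peak in replicate 1 and 3 in replicate 2.

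At 16 of the 35, a member had a peak in both replicates at another annotated start, at any distance from its 5'-most start. Such starts lay up to 95094 bp away (Ostm1), and a gene of these pairs had up to 17 annotated starts (Rnf14). Aspa, with low heights of 0.889 and 0.552, was counted in both Aspa/Gm49340 and Aspa/Spata22. The share of closed promoters in general with such a peak was not tested. Whether these starts are the ones in use was not tested either. Rps2 had 10.8 and 4.26 at a start 1947 bp away, and Dgcr2 had 11.0 and 5.58 at one 6969 bp away. Xrcc1, a repair scaffold gene paired by the rule with Pinlyp, had 14.9 and 5.48 only 861 bp from its 5'-most start. Ccnt1, the cyclin T1 gene, had 13.4 and 6.30 at 3378 bp. At Best1/Rab3il1 both genes had such a start, with 3.8 and 3.06 for Best1 and 7.91 and 3.41 for Rab3il1. The 5 pairs from that of Rps2 to Best1/Rab3il1 were picked after their values were seen. The 7 pairs open in replicate 1 only had low peaks, between 0.361 (Ifit1bl2/Ifit1) and 1.93 (Nisch/Sema3g).

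Around the 1 kb limit of the rule, the 5 pairs just inside it had starts 967 to 987 bp apart. They included Btf3l4/Txndc12, Asphd1/Sez6l2, Zfyve26/Rad51b and Smim7/Tmem38a, with heights of 6.08 to 9.71 in replicate 1 and 2.94 to 4.41 in replicate 2. The 5 just outside were 1007 to 1023 bp apart. Serpina7/4930513O06Rik had no peak, and Gpr108/Trip10, Sgsm2/Tsr1, Dirc2/Hspbap1 and Ppt2/Prrt1 had 2.13 to 12.8 in replicate 1 and 2.16 to 6.64 in replicate 2.

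Heights were higher in replicate 1 in pairs and in the other sets alike. Replicate 1 over replicate 2 gave a median log2 ratio of 1.09 over the 714 open pairs (range -0.25 to 1.82), 0.88 at lone promoters and 0.73 over all 48299 shared peaks, and 99.7% of open pairs, 95.4% of lone promoters and 93.0% of all shared peaks were higher in replicate 1. The pairs thus stood 0.36 above all shared peaks. Height moved with this ratio, since 58% of open pairs and 31.6% of open lone promoters fell in the top decile of shared peaks by height, where the median ratio over all shared peaks was 1.12. Set beside shared peaks of like height, the pairs differed by 0.06 at the median (log2) and lone promoters by -0.03. The ratio was highest at Arfip2/Gm45799 (8.46 and 2.39, log2 ratio 1.82), Scnm1/Lysmd1, Cog8/Nip7, Kdelc1/Bivm and Sptbn4/Blvrb, all above 1.71. Scnm1/Lysmd1 had 49.4% of its region in a second place of the genome. It was lowest at Zfp944/Zfp758, a pair of zinc finger genes (1.29 and 1.54, log2 ratio -0.25), and at Ptchd1/Gm15155 (0.294 and 0.341, -0.21), which were the only pairs higher in replicate 2. Next came Bola1/Hist2h2ab, Sobp/9030612E09Rik and Wdr54/1700003E16Rik, between 0.04 and 0.09.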

How the data were processed

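Peaks, footprints and FDR stretches were deposited per sample on mm10, without pooling, per the deposited file listing. For the aligner and the callers, names were not given in the sources used here. Column 7 of each peak list is a signal (height) that the authors normalised in a way not stated, and the shorter list of each sample was used. FDR values are adjusted p-values by the authors, listed up to 0.05, and each deposited footprint carries the same p-value of 0.01. Since mm10 is built on C57BL/6J, reads of the CAST/EiJ allele may be lost at sites that differ.

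Pairs, lone promoters and windows were built in Python 3.11.15 with numpy 2.4.6, and FDR stretches at 0.001 were joined with bedtools 2.31.1. Overlap was at least 1 bp, and heights were the highest of a region. A pair was called open when peaks of both replicates overlapped it. Motifs were exact letters on both strands of the mm10 sequence, and CpG observed over expected was CpG count times length over the product of C and G counts. Second places of a region were found with blastn 2.17.0 at 98% identity or more. The finding of pairs and their overlap with peaks were checked on simulated pairs and peaks, all of which were recovered. Heights, footprints and FDR stretches were not simulated.

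Named pairs were the 10 highest by mean height, all textbook pairs that met the rule, pairs with adrenal genes, the 10 closest pairs with known names and no peak, 5 on each side of the 1 kb limit, 5 with the most shared footprint bases, 5 at each end of the replicate ratio and 5 with the most peaks. Some pairs that this rule names are not reported here. Others are said to be picked after seeing values or stand as group examples. The members, gene groups, motifs and textbook pairs were chosen with earlier results of these data known. In the gene groups, 7 name patterns of unrelated proteins that share a prefix, such as Rps6k, were left out after the lists had been seen.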

Additional observations from a re-analysis of the deposited data

How the results depend on the processing

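Of 92 alternative values for 12 results, 66 stayed within the spread between the replicates or the interval of the value and 26 moved beyond it. Some of these outcomes were fixed in advance. For the shares with 2 or more peaks and with a centred peak, replicate 2 alone could only move, since the spread comes from the same 2 values. For the median number of footprints this spread was 0, so any change counted as moved. Median heights, which the replicates give on scales of their own, were held to the interval of the median over regions, a choice made after seeing the data. The share of pairs open in both replicates (94.4%) was 95.6% with the longer list, 95.2% with starts at most 500 bp apart, 95.6% without histone, Gm and Rik pairs and 97.0% when any annotated start of a member could be open, an alternative chosen after seeing the data. In 1 replicate alone it was 94.4% to 95.4%. The share of open pairs with 2 or more peaks (41.1%) was 45.7% with the longer list and 35.4% with lists of equal length. This share was 24.1% with a flank of 250 bp, 47.4% with crossing pairs included and 36.1% in replicate 2. The share of peaks centred between the starts (64.6%) was 52.3% with crossing pairs included and 52.4% in replicate 2. The share with a shared footprint (94.3%) was 93.7% with the 250 bp flank, 95.2% up to 500 bp and 93.6% with crossing pairs included. This share was 95.8% without histone, Gm and Rik pairs and 93.3% where footprints overlapped by 50%. Any footprint in 1 replicate was found in 95.2% to 95.8%. The median number of footprints was 7 with the 250 bp flank (8 otherwise), where the share with the ETS core was 38.4% (43.6%) and CpG observed over expected 0.824 (0.761). The log2 ratio over all shared peaks (0.36) was 0.40 with the longer list, 0.27 at equal length and 0.31 with crossing pairs included. The median height of pairs in replicate 1 (8.52) was 8.04 with crossing pairs included. Heights over lone promoters ranged from 1.5 to 1.94 in replicate 1 and from 1.36 to 1.5 in replicate 2. Joining overlapping peaks and leaving out copied regions and the mitochondrial pair, both chosen after seeing the data, gave 39.7% and 94.8%. No paired analysis was possible because there is 1 group. Replicate 2 had fewer peaks and footprints, and the part of sequencing depth in this was not tested.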
